A study of Mus musculus with 14 samples.

Results

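The mouse genes named Zfp with a number are a large set of zinc finger protein genes, and their RNA was followed here in macrophages given interleukin 4 (IL4), the cytokine of alternative macrophage activation. Members were taken by symbol alone, as Zfp followed by digits with at most 1 letter after them, which gave 191 of the 9474 genes listed in both deposited tables. The culture experiment held macrophages grown for 7 days from marrow monocytes of C57BL/6J mice, with 4 libraries that received IL4 at 20 ng/mL together with CSF1, the macrophage growth factor, and 4 control libraries that received CSF1 without IL4. The labels give the CSF1 dose as 25 ng/mL in one place and as 20 ng/mL in another. The marrow experiment held cells sorted on F4/80, a macrophage surface protein, from marrows of C57BL/6J mice 12 days after transplantation of acute myeloid leukaemia (AML) cells, with 3 libraries from mice whose AML cells secreted IL4 from a cDNA and 3 control libraries. The control AML cells are called empty-vector cells in one label and wild-type cells in another, every marrow library comes from a leukaemic host, and no label states the sex or age of the mice or names the AML line. Nothing says whether the libraries of a group came from separate mice or cultures, so p-values measure the spread between these libraries, which may be technical.

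Most proteins with this name carry repeated C2H2 fingers, short loops held by a zinc ion that each read a few bases of DNA. Many of them also carry a KRAB domain, which recruits the corepressor TRIM28 and, through it, the methyltransferase SETDB1, and which is best known for silencing transposable elements. Other genes share only the name: Zfp36 encodes tristetraprolin, a CCCH-type finger protein that binds AU-rich elements in cytokine mRNAs and directs their decay, a brake on inflammatory cytokines in macrophages.

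All 191 members were matched to the GENCODE M21 annotation of GRCm38 (mm10), 2 of them by an older symbol, and each was annotated as protein coding. In proteins translated from that annotation, 186 members had at least 1 C2H2 finger, with a median of 9 over all members and a highest count of 37. Zfp36 and Zfp703 are among the 5 with no match to the pattern. A KRAB core was searched for in the first 150 residues as V or L, T or S, F, any residue, D, then V, L or I. It was found in 61 members and not in 130. A KRAB domain that lies further in or departs from this pattern is missed. The members lay on 20 chromosomes, with 46 on chromosome 7 and 26 on chromosome 17, and 105 of them stood in 25 runs of neighbours no more than 500 kb apart.

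The 5 members that passed the test in both experiments were Zfp36, Zfp217, Zfp703, Zfp609 and Zfp101, and the RefSeq promoter table (GRCm38.p6) holds the first, the second and the last of these. The 250 bases before an annotated start are shown for these 3 genes because their RNA changed in both settings. For Zfp217, 1 of 2 listed starts is shown. All 3 genes are read from the minus strand, and sequences run 5′ to 3′ in the direction of transcription, at chr7:28379229-28379478 for Zfp36, chr2:170142676-170142925 for Zfp217 and chr17:33394638-33394887 for Zfp101. Capitals mark the single match to TTCNNNGAA, the palindrome that most STAT factors bind.
Zfp36: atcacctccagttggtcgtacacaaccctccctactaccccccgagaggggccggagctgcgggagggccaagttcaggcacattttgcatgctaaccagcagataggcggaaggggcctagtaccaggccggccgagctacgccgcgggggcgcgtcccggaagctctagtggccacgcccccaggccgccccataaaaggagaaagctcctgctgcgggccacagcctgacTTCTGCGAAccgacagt
Zfp217: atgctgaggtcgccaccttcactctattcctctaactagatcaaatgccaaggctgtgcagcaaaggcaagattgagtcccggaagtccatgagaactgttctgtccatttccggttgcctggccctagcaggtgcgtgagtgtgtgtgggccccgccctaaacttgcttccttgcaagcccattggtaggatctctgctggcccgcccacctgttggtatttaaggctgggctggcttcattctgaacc
Zfp101: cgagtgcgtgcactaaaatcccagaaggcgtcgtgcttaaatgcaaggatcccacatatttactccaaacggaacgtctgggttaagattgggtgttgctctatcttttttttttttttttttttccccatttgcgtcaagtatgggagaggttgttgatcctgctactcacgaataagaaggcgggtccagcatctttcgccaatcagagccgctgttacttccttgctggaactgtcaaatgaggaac
TTCNNNGAA was found in 22 of 196 promoters of members (11.2%) and in 7.02% of all 32851 promoters of the same length. The same arms, TTC and GAA, set 4 bases apart, the spacing that STAT6, the main factor downstream of the IL4 receptor, prefers, were found in 6.63% of the promoters of members and in 5.85% of all promoters. TGANTCA, the AP-1 motif, was found in 3.57% of the promoters of members and in 6.75% of all promoters. Each motif is its own reverse complement, so a match counts for both strands. None of the 3 motifs was found in the windows shown for Zfp217 and Zfp101. These matches describe letters in a window and not bound sites.

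Values below are deposited log2 values minus the median gene of the same library, so each change is relative to the median gene. Whole reads were recovered from these values for all 191 members and for 9305 genes, and those genes held 464018 to 711613 reads per library. Members were low: their mean over libraries ran from 3.71 to 207 reads, with a median of 12.9 reads against 33.4 reads over all genes. The deposited values hold a constant per gene that could not be identified, so levels were not compared between genes. Retnla, a classical IL4 target, had 4641 to 11618 reads in culture IL4 libraries and 0 in each culture control library, and 895 to 3037 reads in marrow IL4 libraries and 0 in each marrow control library, as the labels would have it. The culture libraries numbered 4 differed from the mean of the other libraries of their group by a root mean square of 0.61 (IL4) and 0.63 (control) log2 units, against 0.45 to 0.51 for the other culture libraries.

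The macrophage markers with recovered reads summed to less in marrow than in culture. Csf1r, of the same list, had no recovered reads, so its level is not part of that statement. Emr1, which encodes F4/80, had 37, 74 and 126 reads in marrow IL4 libraries and 28, 65 and 39 in marrow control libraries, against 745 to 2415 in culture. S100a8 and S100a9, abundant neutrophil and monocyte genes, summed to 39830 to 46920 CPM (recovered reads scaled to the library total) in marrow IL4 libraries and 47510 to 55250 in marrow control libraries, and at most 53.2 in culture. The 3 measured monocyte markers of 5 listed summed to 121 to 185 CPM in marrow IL4 libraries and 1683 to 2175 in marrow control libraries, and to 30.9 to 92.2 in culture IL4 libraries and 311 to 461 in culture control libraries. Of 6 listed macrophage symbols, Emr1 and Adgre1 name the same gene, and 4 had recovered reads. These 4 summed to 2963 to 3229 CPM in culture IL4 libraries and 4548 to 5377 in culture control libraries. In marrow they summed to 136 to 301 in IL4 libraries and 205 to 284 in control libraries. Car2 and Tfrc, the 2 measured genes of the erythroid list, summed to 216 to 301 CPM in marrow IL4 libraries and 1642 to 1711 in marrow control libraries. In culture they summed to 529 to 1492 in IL4 libraries and 75.3 to 199 in control libraries. Prg2 and Ear2, the 2 measured genes of 4 on the eosinophil list, summed to 418 to 573 CPM in marrow IL4 libraries and 142 to 191 in marrow control libraries. In culture these 2 summed to 720 to 2550 in IL4 libraries and 0 to 16.1 in control libraries. Prg2 had 0 reads in each culture IL4 library, so the sums there were those of Ear2 alone (578, 471, 587 and 1328 reads). Cd79b, the 1 measured gene of 6 on the B cell list, had 14, 12 and 28 reads in marrow IL4 libraries and 54, 40 and 55 in marrow control libraries. Il7r, the 1 measured gene of 5 on the T cell list, had 2, 3 and 4 reads in marrow IL4 libraries and 25, 23 and 36 in marrow control libraries. In culture Il7r went the other way, with 594, 632, 532 and 365 reads in IL4 libraries and 150, 57, 73 and 287 in control libraries. Mertk, a receptor of mature macrophages, had 10, 10 and 23 reads in marrow IL4 libraries and 3, 0 and 0 in marrow control libraries. The 5 measured macrophage genes split in marrow. The log2 fold change, IL4 minus control, was 4.0 for Mertk and 0.91 for Emr1, and -2.60 for Fcgr1, -1.06 for Csf1r and -0.91 for Cd68. The limma adjusted p was 0.0982 for Emr1 and 0.0562 for Cd68, and below 0.05 for the other 3. In culture the log2 fold change of Mertk was -1.11. The part of such shifts in the results on members was not tested. In these bulk libraries, fewer cells of a type and less RNA per cell cannot be told apart.

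In culture, 16 of 191 members (8.38%) passed at an adjusted p below 0.05 (limma with Benjamini-Hochberg adjustment over 9474 genes), against 27.1% of all genes. Of these, 7 were higher and 9 were lower with IL4, where 14.4% of all genes were higher and 12.7% lower. Without centring, 2 were higher and 55 lower in culture, where 7.96% of all genes were higher and 32.6% lower. Without both culture libraries numbered 4, 7 were higher and 11 lower, against 30.7% of all genes in either direction. In marrow, 10 members (5.24%) passed, against 18.4% of all genes. There 5 were higher and 5 lower, where 9.45% of all genes were higher and 8.92% lower. Without centring, 5 were higher and 8 lower in marrow, where 6.7% of all genes were higher and 11.5% lower. At an unadjusted p below 0.05 the members numbered 36 in culture (18.8%, against 38.5% of all genes) and 35 in marrow (18.3%, against 32.8%). In both experiments 5 members passed (2.62%, against 8.32% of all genes), 3 of them in the same direction and 2 in opposite directions (against 6.2% and 2.12% of all genes), and in at least 1 experiment 21 passed, against 37.2% of all genes.

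The share was smaller for members than for all genes in each class of read depth as well, a description with no test. Among genes with a mean under 10 reads in culture, 5 of 79 members (6.33%) and 18.7% of all genes passed. Between 10 and 30 reads these shares were 6 of 82 members (7.32%) and 20.3% of all genes. At 30 reads or more they were 5 of 30 members (16.7%) and 34.3% of all genes. This class has no upper limit and, over all genes, includes the 169 highly read genes without recovered reads. No member had a mean above 207 reads over all libraries, so depth is not matched in it. In marrow the 3 classes gave 2 of 73 (2.74%), 4 of 75 (5.33%) and 4 of 43 members (9.3%), against 11.2%, 16.5% and 21.6% of all genes. Changes of 1 or more log2 unit in either direction were seen in 12 members in culture (6.28%, against 17.2% of all genes) and in 16 in marrow (8.38%, against 13.5%). The median standard error of a member was 0.28 in culture and 0.32 in marrow, against 0.22 and 0.23 over all genes.

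**Figure D1:**
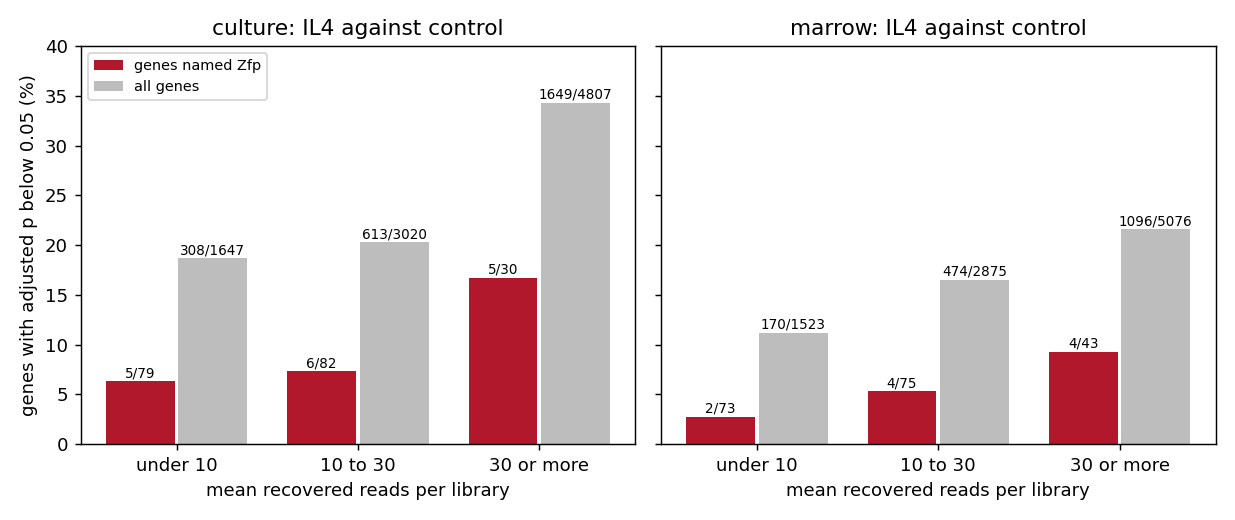
Percentage of genes with an adjusted p below 0.05 for IL4 against control (vertical axis) by mean recovered reads per library (horizontal axis), for genes named Zfp (red bars) and all genes (grey bars), in culture (left) and marrow (right), with the counts above the bars. In each class of reads the red bar is lower than the grey one, for example 16.7% against 34.3% at 30 reads or more in culture. The grey bars of that class also hold the 169 highly read genes without recovered reads.

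The members as a group sat slightly below the median gene in the culture response. Their median log2 fold change, IL4 minus control, was -0.15 (quartiles -0.46 and 0.15), against 0.00 (quartiles -0.38 and 0.37) for all genes, and 120 of 191 were below 0. Without centring, the median gene itself stood at -0.36 and the members at -0.52. After quantile normalization the members stood at -0.06. In marrow the members' median was 0.02 (quartiles -0.28 and 0.27), against 0.04 for all genes, and 92 of 191 were below 0. Summed over members, recovered reads made up 0.579% to 0.593% of all recovered reads in culture IL4 libraries. The share was 0.772% to 0.819% in culture control libraries, with no overlap between the groups. Reads of 169 highly read genes were not recovered and are not in these totals. In marrow the share was 0.807% to 0.827% in IL4 libraries and 0.832% to 0.903% in control libraries, again with no overlap but closer together. These shares move with the few very abundant genes of each library as well as with the members.

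**Figure D2:**
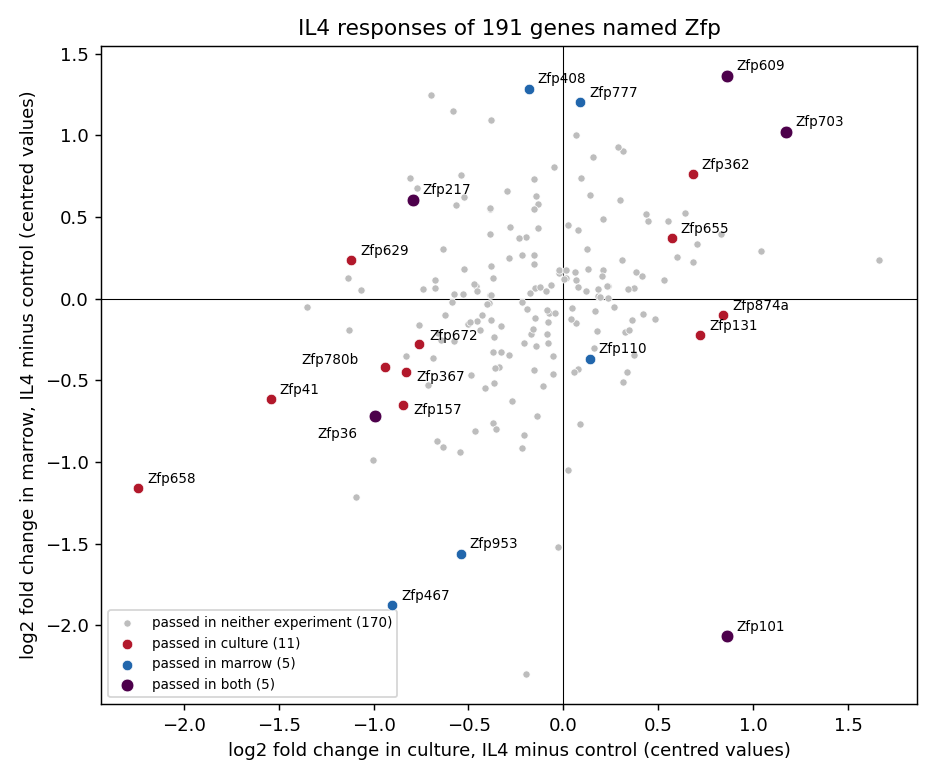
Log2 fold change (IL4 minus control, centred values) in culture (horizontal axis) and in marrow (vertical axis) for 191 genes named Zfp, each point a gene, coloured by the experiments in which its adjusted p was below 0.05. The 5 genes that passed in both lie in different corners: Zfp703 and Zfp609 high in both, Zfp36 low in both, Zfp217 low in culture and high in marrow, and Zfp101 the reverse.

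Zfp36, the tristetraprolin gene (ENSMUSG00000044786), fell in both experiments. It lies at chr7:28376784-28380253 on the minus strand, and 3.6% of its exon bases lie under Gm44710 on the opposite strand. Culture IL4 libraries had 83, 114, 106 and 97 reads, and culture control libraries had 287, 235, 192 and 258 reads. Every IL4 library was below every control library. Its centred log2 value averaged 0.70 ± 0.26 in culture IL4 libraries and 1.70 ± 0.19 in culture control libraries (SD, n = 4 each), a log2 fold change of -0.99 ± 0.16 (SE, limma adjusted p = 0.00143), or 0.503-fold. In marrow it had 117, 94 and 205 reads in IL4 libraries and 219, 246 and 261 in control libraries, which did not overlap on the centred scale either. The log2 fold change in marrow was -0.72 ± 0.17 (SE, limma adjusted p = 0.018). That call was lost without marrow control library 2 (-0.70, adjusted p = 0.0589) or control library 3 (-0.70, adjusted p = 0.0644). Zfp36 is also an immediate early gene. Of 18 other immediate early genes measured, 7 rose and 5 fell in culture (66.7%, against 27.1% of all genes). In marrow 3 rose and 6 fell (50%, against 18.4% of all genes). Fos and Fosb fell and Egr2, Jund and Myc rose in both, while Klf4 rose in culture and fell in marrow.

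The closest relatives of Zfp36 carry longer names and are no members, but they belong to the list of 31 AU-rich element decay genes, of which 1 rose and 2 fell in culture (9.68%, against 27.1% of all genes) and 2 rose and 3 fell in marrow (16.1%, against 18.4%). Zfp36l1, which encodes another CCCH decay factor of this family, fell in culture (log2 -0.54 ± 0.12, adjusted p = 0.00708) and rose in marrow (0.99 ± 0.23, adjusted p = 0.0188). It had 138, 118, 129 and 93 reads in culture IL4 libraries and 259, 191, 202 and 192 in culture control libraries. In marrow it had 62, 51 and 129 reads in IL4 libraries and 32, 41 and 55 in control libraries. Zfp36l2, the remaining measured paralogue, fell in marrow (-1.02 ± 0.18, adjusted p = 0.00544) and had a log2 fold change of -0.19 in culture (adjusted p = 0.306). Auh, an AU-binding enoyl-CoA hydratase, was the other gene of this list that passed in both, with rises of 1.25 in culture (adjusted p = 7.68e-05) and 0.54 in marrow (adjusted p = 0.0474). Tnf, the classical tristetraprolin target, had 0, 2, 3 and 5 reads in culture IL4 libraries and 22, 9, 6 and 9 in culture control libraries, with an adjusted p of 0.0742, and a log2 fold change of 0.32 in marrow (adjusted p = 0.633).

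Zfp703 and Zfp609 rose in both experiments. Zfp703 (ENSMUSG00000085795, chr8:26977325-26981461, plus strand) encodes a nuclear corepressor whose human counterpart is amplified in luminal breast cancers. Its reads numbered 111, 112, 101 and 67 in culture IL4 libraries and 57, 53, 50 and 46 in culture control libraries. Centred values averaged 6.24 ± 0.23 in culture IL4 libraries and 5.07 ± 0.17 in culture control libraries (SD, n = 4 each), a log2 fold change of 1.17 ± 0.14 (SE, limma adjusted p = 0.000256). Marrow IL4 libraries had 28, 23 and 38 reads and marrow control libraries had 15, 13 and 20, a log2 fold change of 1.02 ± 0.16 (SE, limma adjusted p = 0.00254). The fold was 2.25 in culture and 2.03 in marrow, and the difference of the responses was 0.15 ± 0.22 (adjusted p = 0.697). Without strand information, reads from Gm45371, which covers 13.5% of the exon bases of Zfp703 on the opposite strand, could not be told apart.

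Zfp609 (ENSMUSG00000040524, chr9:65692391-65827564, minus strand) encodes a protein that works with the cohesin loader NIPBL and the Integrator complex in mouse neural progenitors. It had 54, 48, 35 and 35 reads in culture IL4 libraries and 33, 25, 24 and 31 in culture control libraries. In marrow it had 50, 84 and 106 reads in IL4 libraries and 35, 29 and 35 in control libraries. On the centred scale IL4 and control libraries did not overlap in either experiment. The log2 fold change was 0.86 ± 0.16 in culture (SE, limma adjusted p = 0.00321) and 1.36 ± 0.22 in marrow (SE, limma adjusted p = 0.0032). Both calls on Zfp703 and both on Zfp609 held in every fit that left out 1 library.

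**Figure D3:**
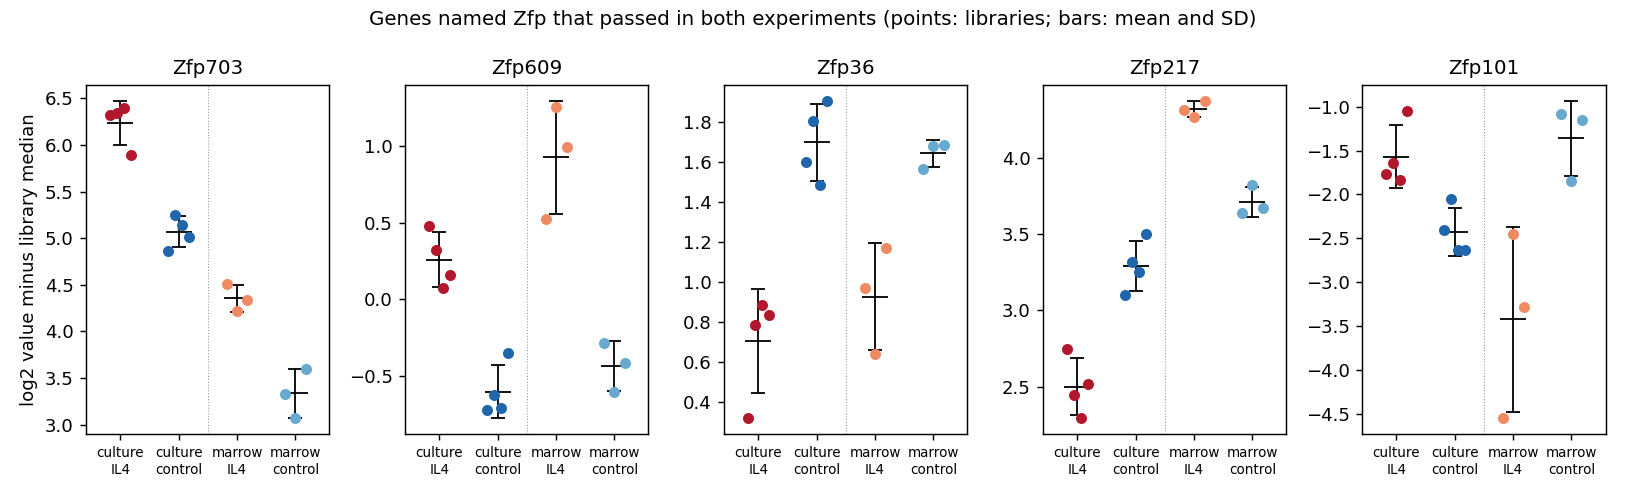
Centred log2 value (log2 value minus the median gene of the library, vertical axis, a separate scale for each gene) of the 5 genes that passed in both experiments, in culture IL4, culture control, marrow IL4 and marrow control libraries (points), with group means and SD (bars). Zfp217 moves in opposite directions in the 2 experiments, with means of 2.50 and 3.29 in culture IL4 and control libraries and 4.32 and 3.71 in marrow IL4 and control libraries.

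Zfp217 and Zfp101 changed in opposite directions in culture and marrow, and for both the difference itself passed. Zfp217 (ENSMUSG00000052056, chr2:170108643-170148103, minus strand) encodes a C2H2 protein whose human counterpart, ZNF217, is amplified in breast cancer and works in corepressor complexes with CtBP and CoREST. It had 62, 50, 39 and 43 reads in culture IL4 libraries and 113, 93, 91 and 108 in culture control libraries, and every IL4 library was lower. Marrow IL4 libraries had 166, 162 and 263 reads and marrow control libraries had 128, 151 and 144, and every IL4 library was higher. The log2 fold change was -0.79 ± 0.13 in culture (SE, limma adjusted p = 0.00156) and 0.61 ± 0.12 in marrow (SE, limma adjusted p = 0.00688). Culture minus marrow, the responses differed by -1.40 ± 0.18 (adjusted p = 9.55e-05), and these 3 calls held in every fit that left out 1 library.

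Zfp101 (ENSMUSG00000055240, chr17:33360507-33394641, minus strand) encodes a KRAB protein with 12 fingers found in its translated sequence. Culture IL4 libraries had 11, 12, 9 and 15 reads and culture control libraries had 10, 9, 6 and 6. On the centred scale these groups did not overlap, with a log2 fold change of 0.86 ± 0.26 (SE, limma adjusted p = 0.0324). Marrow IL4 libraries had 1, 6 and 5 reads and marrow control libraries had 20, 12 and 21, a log2 fold change of -2.07 ± 0.51 (SE, limma adjusted p = 0.0231). The culture rise was not called without centring (0.50, adjusted p = 0.164), nor without IL4 libraries 2 or 4 or control libraries 1, 3 or 4, each left out alone, with adjusted p-values of up to 0.083. The marrow fall was not called without IL4 library 3 or control libraries 1 or 3, with adjusted p-values of up to 0.0814. The difference of the responses, 2.93 ± 0.58 (adjusted p = 0.00277), was called in all 14.

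The other 4 members that rose in culture gave changes whose call depended on the scaling. Zfp874a, a KRAB gene that shares 16.3% of its 50-base words with other genes, mainly Zfp874b, and so may share reads with them, rose by 0.84 (adjusted p = 0.0412). Zfp131, a BTB-type zinc finger gene, rose by 0.72 (adjusted p = 0.0236), with 23, 33, 22 and 17 reads in culture IL4 libraries and 18, 19, 14 and 17 in culture control libraries. Zfp362 rose by 0.68 (adjusted p = 0.036) although its libraries overlapped. Zfp655, whose product binds the signalling adaptor VAV1, rose by 0.57 (adjusted p = 0.0275). Each of the 8 culture libraries, left out alone, ended the call of at least 1 of these 4 genes, and adjusted p-values reached 0.11. Without centring, Zfp101 and these 4 were no longer called while Zfp703 and Zfp609 were.

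Among the members that fell in culture, Zfp658 gave the largest change. It is a KRAB gene with 21 fingers found, and its human counterpart represses zinc transport genes when zinc is abundant. It had 1, 1, 2 and 4 reads in culture IL4 libraries and 19, 11, 11 and 10 in culture control libraries, a log2 fold change of -2.24 ± 0.43 (SE, limma adjusted p = 0.00331). Every IL4 library was far below every control library, at a depth of few reads. In marrow Zfp658 had 0, 4 and 6 reads in IL4 libraries and 5, 5 and 7 in control libraries, with an adjusted p of 0.344.

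Zfp41 fell by 1.54 on the log2 scale (adjusted p = 0.0143), with 1, 4, 5 and 2 reads in culture IL4 libraries and 15, 11, 9 and 8 in culture control libraries. Zfp629 had 17, 9, 7 and 9 reads in culture IL4 libraries and 34, 23, 25 and 27 in culture control libraries, a log2 fold change of -1.12 ± 0.23 (SE, limma adjusted p = 0.0044). Zfp157, a KRAB gene described in mouse mammary gland as regulated by STAT6, fell by 0.85 on the log2 scale (adjusted p = 0.00544). It had 9, 6, 5 and 7 reads in culture IL4 libraries and 15, 16, 14 and 15 in culture control libraries, which did not overlap. Zfp658, Zfp41, Zfp629 and Zfp157 were called in all 8 fits that left out 1 library. In marrow Zfp157 had 3, 4 and 12 reads in IL4 libraries and 6, 15 and 10 in control libraries, with an adjusted p of 0.235.

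Zfp367 (-0.83, adjusted p = 0.017), Zfp780b (-0.94, adjusted p = 0.0399) and Zfp672 (-0.76, adjusted p = 0.0427) completed the falls in culture, and were called in 7, 3 and 2 of 8 such fits. The call on Zfp367 was lost without control library 3 (-0.70, adjusted p = 0.0533). The calls on Zfp780b and Zfp672 were each lost without IL4 library 1, IL4 library 3 or control library 2, among others, with adjusted p-values of up to 0.112. Zfp780b shares 27.2% of its 50-base words with other genes, mainly Zfp974, so its reads could be split between them. Zfp362, Zfp367 and Zfp672 fell outside the rule for named genes and are given after their values were seen.

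In marrow, 5 members passed that had not passed in culture. Zfp408, whose human counterpart is mutated in retinal vascular disease, had 35, 36 and 42 reads in marrow IL4 libraries and 21, 10 and 23 in marrow control libraries. Its log2 fold change was 1.29 ± 0.32 (SE, limma adjusted p = 0.0231), and the call was lost without IL4 library 1 (1.23, adjusted p = 0.0655) or IL4 library 2 (1.22, adjusted p = 0.0638). Zfp777 had 24, 17 and 31 reads in marrow IL4 libraries and 8, 12 and 14 in marrow control libraries, so its log2 value was 1.20 higher with IL4 (adjusted p = 0.0243). The rise was not called without IL4 libraries 1 or 3 or control libraries 1 or 2, with adjusted p-values of up to 0.0752.

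Zfp953, a KRAB gene, gave the firmest fall in marrow. It had 3, 3 and 5 reads in marrow IL4 libraries and 14, 9 and 17 in marrow control libraries, a log2 fold change of -1.56 ± 0.23 (SE, limma adjusted p = 0.00217) that held in all 6 fits. Zfp467, known in mouse marrow stroma for favouring fat over bone formation, had 2, 2 and 1 reads in marrow IL4 libraries and 6, 10 and 9 in marrow control libraries. Its log2 fold change of -1.88 ± 0.51 (SE, limma adjusted p = 0.0338) was lost without IL4 library 3 or any 1 control library, with adjusted p-values of up to 0.113. Zfp110, which encodes an interactor of the p75 neurotrophin receptor, fell by 0.37 on the log2 scale (adjusted p = 0.0481) and was called in none of the 6. Zfp81, the neighbour of Zfp101, had the lowest marrow value of all members, -2.30, with 4, 0 and 2 reads in IL4 libraries and 8, 10 and 10 in control libraries, and missed the threshold (adjusted p = 0.054).

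The difference between the culture and the marrow response passed for 8 members (4.19%), against 18.9% of all genes, with the culture response higher for 3 and lower for 5, where 9.38% of all genes were higher and 9.5% lower. Without centring the split was 1 higher and 13 lower, against 6.45% and 16.6% of all genes. Besides Zfp217 and Zfp101, Zfp629 (-1.35, adjusted p = 0.0214), Zfp408 (-1.47, adjusted p = 0.0403) and Zfp131 (0.94, adjusted p = 0.0332) had passed in 1 experiment. Zfp652, whose human counterpart acts with the corepressor CBFA2T3, passed in neither experiment alone but in the difference (-1.29 ± 0.35, adjusted p = 0.0181). It had 18, 13, 18 and 11 reads in culture IL4 libraries and 41, 22, 21 and 25 in culture control libraries, against 36, 25 and 48 in marrow IL4 libraries and 20, 18 and 34 in marrow control libraries. Reads from Abi3, Phospho1 and Zfp652os, which together cover 20.0% of its exon bases, could be counted with it. Zfp111 (-1.54, adjusted p = 0.0313) and Zfp706, a brake on self-renewal in mouse embryonic stem cells (0.78, adjusted p = 0.0494), also passed in the difference alone. Zfp111 passed in culture without control library 4 (-1.14, adjusted p = 0.00171). Zfp652 did not pass in the difference without marrow control library 2 (-1.12, adjusted p = 0.0523), and Zfp629 did not without marrow IL4 library 3, control library 1 or control library 2, with adjusted p-values of up to 0.0593.

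Of 24 genes listed for a known role, 19 are among the 191 members. At least 1 experiment was passed by 21 of the 191 members and by 37.2% of all genes. Of the 19 listed genes 2 did so, Zfp36 and Zfp217. Zfp91, a ubiquitin ligase of noncanonical NF-κB signalling, came closest of the rest, with 116, 99, 86 and 81 reads in culture IL4 libraries and 88, 79, 84 and 93 in culture control libraries. Its log2 fold change was 0.42 ± 0.14 (SE, limma adjusted p = 0.0505), and its groups did not overlap on the centred scale. Without culture control library 4 it passed (0.49, adjusted p = 0.0272). Zfp106, an RNA-binding protein needed by mouse motor neurons and one of the most deeply read members, had 245, 219, 192 and 184 reads in culture IL4 libraries and 296, 217, 211 and 214 in culture control libraries. Its log2 fold change was 0.13 ± 0.09 in culture (adjusted p = 0.36) and 0.30 ± 0.13 in marrow (adjusted p = 0.134). Zfp207, a spindle assembly protein, gave -0.15 ± 0.11 in culture (adjusted p = 0.367) and 0.07 ± 0.14 in marrow (adjusted p = 0.779).

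A further 7 genes of this list did not pass in either experiment. Zfp143, an activator of small nuclear RNA genes, gave -0.15 in culture and 0.21 in marrow. Zfp148 gave 0.21 and 0.18, Zfp263 gave 0.20 and 0.14, Zfp281 gave -0.22 and 0.27, and Zfp384, rearranged in human B cell leukaemia, gave -0.21 and -0.27. Zfp318, needed for IgD on mouse B cells, gave -0.47 and -0.81, and Zfp335 gave -0.50 and -0.15, in the same order. Their adjusted p-values ran from 0.141 upwards in culture and from 0.259 upwards in marrow.

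The remaining genes named for a known role did not pass in either experiment. Zfp598, the ubiquitin ligase of collided ribosomes, gave -0.16 in culture and -0.18 in marrow, and Zfp622, a maturation factor of the large ribosomal subunit, gave 0.23 and 0.08. Zfp346, which binds double-stranded RNA, gave 0.32 and -0.20. Zfp593, whose yeast counterpart exports pre-ribosomes, gave -0.58 and 1.15 with no call, and 77.9% of its exon bases lie under E130218I03Rik on the opposite strand. Zfp451, a SUMO ligase, gave 0.60 and 0.26, and passed in culture without IL4 library 4 (0.82, adjusted p = 0.0347). Zfp809, a KRAB protein that silences retroviral DNA in mouse embryonic stem cells, had 4 to 7 reads in culture IL4 libraries and 6 to 14 in culture control libraries, and gave -0.59 and -0.02. Their adjusted p-values ran from 0.14 upwards in culture and from 0.231 upwards in marrow.

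The 61 members with a match to the KRAB core pattern had fewer reads than the 130 without one, with medians of 8.71 and 20.7 mean reads. KRAB genes that the pattern missed may stand among the 130, so with and without a core mean a match or none. With a KRAB core, 2 members rose and 3 fell in culture (8.2%), and without one 5 rose and 6 fell (8.46%), against 27.1% of all genes called in either direction. In marrow 0 rose and 2 fell with a KRAB core (3.28%), and 5 rose and 3 fell without one (6.15%), against 18.4% of all genes. The median log2 fold change was -0.21 with a KRAB core and -0.13 without one in culture, and -0.13 and 0.06 in marrow, and 36 of 61 and 56 of 130 members were below 0 in marrow. The quartiles overlapped widely in both experiments, and the difference between the classes was not tested.

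**Figure D4:**
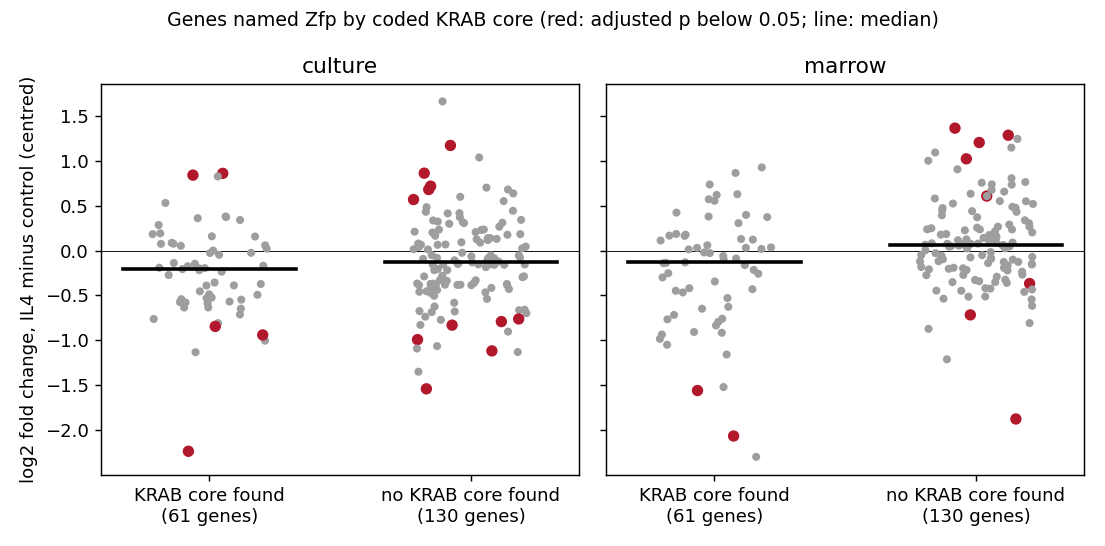
Log2 fold change, IL4 minus control (centred, vertical axis), of genes named Zfp in culture (left) and marrow (right). Genes are split by a match to the KRAB core pattern in the translated protein (horizontal axis). Points are genes, red points passed at an adjusted p below 0.05, and lines are medians, at -0.21 and -0.13 in culture and at -0.13 and 0.06 in marrow.

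By number of fingers, 20 of 44 members with 1 to 5 fingers were below 0 in culture, 45 of 69 with 6 to 11, and 51 of 73 with 12 or more. In marrow these counts were 18, 36 and 36. The median in culture was 0.06, -0.15 and -0.22 over the same 3 classes, and the middle and upper classes had fewer reads, with medians of 11.5 and 10.4 against 23.0.

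Neighbours in the genome were set side by side. The largest run, 13 members at chr17:21008903-23564238, held no gene that passed in either experiment, with log2 fold changes of -0.71 to 0.70 in culture and -0.84 to 0.47 in marrow. The run at chr17:32765496-33631779 holds 9 members, among them Zfp101 and Zfp81. All 9 were below 0 in marrow, from -2.30 to -0.05, and 1 passed. In culture 8 of the 9 were below 0, and Zfp101 was the exception. The run at chr7:27731389-28380253, with Zfp60, Zfp59, Zfp607, Zfp780b and Zfp36, was below 0 for all 5 members in both experiments, with 2 falls passing in culture and 1 in marrow. The 8 KRAB genes at chr13:67312998-67729173 split, with Zfp874a rising in culture and Zfp953 falling in marrow. Over all genes, 49.8% were below 0 in culture and 46.7% in marrow, and 27.1% and 18.4% passed. Members of a run can share reads. Zfp59 and Zfp780b share 52.4% and 27.2% of their 50-base words with other genes. For Zfp955a and Zfp955b, in the run of Zfp101, these were 51.8% and 31.6%, mainly with each other. Runs were picked from 25 after their values were seen and carry no test.

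Trim28 and Setdb1, which act with KRAB proteins, did not pass in either experiment. Trim28 had 98, 83, 75 and 69 reads in culture IL4 libraries and 141, 107, 92 and 100 in culture control libraries, a log2 fold change of -0.15 ± 0.11 (SE, limma adjusted p = 0.37), and gave 0.07 in marrow (adjusted p = 0.826). Setdb1 gave -0.03 in culture (adjusted p = 0.905) and -0.24 in marrow (adjusted p = 0.605). Of 28 measured KRAB partner and heterochromatin genes, 3 rose and 5 fell in culture (28.6%, near the 27.1% of all genes), and 1 rose and 2 fell in marrow (10.7%, against 18.4% of all genes). The DNA methyltransferases were the ones that passed in both. Dnmt3a, which sets new methylation, rose by 1.79 in culture (adjusted p = 0.000855) and by 1.04 in marrow (adjusted p = 0.00394). Dnmt1, which copies methylation after replication, had log2 fold changes of -0.57 (adjusted p = 0.0135) and -0.48 (adjusted p = 0.0201). In the list of 25 cell cycle genes, 18 fell and 1 rose in culture (76%, against 27.1% of all genes). In marrow 21 of them fell (84%, against 18.4% of all genes). The part of these shifts in the result on Dnmt1 was not tested.

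Genes with other zinc finger names are given for comparison. Over all genes, 27.1% passed in culture and 18.4% in marrow. Of 32 Zbtb genes 5 passed in culture (15.6%) and 1 in marrow (3.12%). Of 13 Zscan and Zkscan genes 2 passed in culture (15.4%) and 0 in marrow, and of 16 Zc3h genes 3 (18.8%) and 1 (6.25%). Of 30 genes named Znf, Zmym, Zmiz, Zmynd or Zdhhc 4 passed in culture (13.3%) and 1 in marrow (3.33%). Of 10 Kruppel-like factors 4 passed in culture (40%) and 2 in marrow (20%). No test between these lists and the members was made.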

How the data were processed

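RNA was sequenced from 14 mouse macrophage libraries, 8 from culture and 6 from marrow, after extraction with an RNeasy Micro kit and preparation with a TruSeq RNA v2 kit, per the labels' protocols. Base calls were converted with bcl2fastq and reads aligned to mm10 with TopHat2 2.0.13, per the submitters' processing notes. No source names the counting tool, its use of strand or the normalization. Each deposited table holds log2 expression values of 9474 genes per library, and those alone were tested. The authors' deposited p-values and linear fold changes in the same tables were not used.

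The deposited log2 values behave as log2 of whole reads plus 0.5 shifted by 1 amount for each gene and another for each library. Whole reads were recovered within 0.0008 log2 units for 9305 genes (98.2%), all members included, and 169 highly read genes could not be resolved. Recovered reads number 464018 to 711613 per library and describe depth, the median gene having 23 to 40. Counting error is therefore large for most members.

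Values were centred on the median gene of each library. IL4 was set against control in each table with limma 3.58.1 (R 4.3.3, eBayes with a variance trend, two-sided), and the difference of the responses was fitted over all 14 libraries. Tests used Benjamini-Hochberg adjustment over 9474 genes, with a threshold of 0.05 and no filter. The fit was tested on simulated data. No test was made on the members as a list. Same-numbered libraries are not stated to be paired. Alternatives were no centring, trimmed-mean centring, quantile normalization, a minimum of 10 mean reads, no variance trend, voom weights on the reads, a replicate block, leaving out each library, and, chosen after seeing the data, leaving out both culture libraries numbered 4.

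Exon overlap, shared 50-base words, fingers and KRAB cores were computed from GENCODE M21 in place of a RefSeq protein table, which was not used here. Classes of reads were also chosen after seeing the data. Named genes are, per experiment, the 6 largest rises and 6 largest falls among members that passed with groups apart, those passing in both experiments, the 6 largest passing differences, and 24 genes of known role. The members and lists were chosen with earlier results of these data known. No per-sample column was left unused.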

Additional observations from a re-analysis of the deposited data

Results flagged for a closer look

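In 80 groups of 4 culture libraries, 1 library stood far from the other 3 by Dixon's criterion in 4 cases, and chance gives about 1 in 20. In the centred log2 values, Zfp703 was at 5.89 in culture IL4 library 4, against 6.32 to 6.40 in the other IL4 libraries. Zfp451 was at -1.74 in culture IL4 library 4, against -0.90 to -0.85. Zfp207 was at 2.45 in culture IL4 library 1, against 2.73 to 2.76. Zfp91 was at 1.99 in culture IL4 library 1, against 1.77 in the other 3.

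For 8 members the response to IL4 in culture differed from that in marrow by the test of the difference itself. The difference, culture minus marrow on the log2 scale, was 2.93 for Zfp101, 0.94 for Zfp131 and 0.78 for Zfp706. It was -1.54 for Zfp111, -1.40 for Zfp217, -1.47 for Zfp408, -1.35 for Zfp629 and -1.29 for Zfp652. In fits that left out 1 library, Zfp217 and Zfp101 passed in all 14, Zfp652 in 13, Zfp629 in 11, Zfp131 and Zfp111 in 6, Zfp408 in 4 and Zfp706 in 3.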

How the results depend on the processing

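Without centring, 2 rose and 55 fell in culture, 8 fell in marrow, and the difference of the responses was higher for 1 and lower for 13, with a median log2 fold change of -0.52 in culture and -0.0817 in marrow. After quantile normalization the culture median was -0.0604. With a minimum of 10 reads, 7 rose and 5 fell in culture among the fewer members tested, 12 of 112 (10.7%, against 30.8% of all genes). In marrow 10 of 118 passed in that fit (8.47%, against 22.7% of all genes). With voom weights 9 rose in marrow and the difference was higher for 5, and with a z of the difference of both fits it was higher for 8 and lower for 11. Leaving out 1 library gave 2 to 6 rises and 8 to 11 falls in culture, 3 to 7 rises and 1 to 6 falls in marrow, and differences higher for 1 to 4 and lower for 1 to 6. The difference was higher for 1 without culture IL4 library 3, culture control library 3, marrow IL4 library 3 or marrow control library 1. It was lower for 3 without culture IL4 library 2, culture control library 2 or marrow IL4 library 3, and for 1 without marrow control library 2. Culture rises numbered 3, 4, 2 and 4 without IL4 library 2, IL4 library 3, control library 1 and control library 3. Marrow falls numbered 2 without IL4 library 3, control library 1 or control library 2, and 1 without control library 3, and marrow rises 3 without IL4 library 1. Without both culture libraries numbered 4, 7 rose and 11 fell in culture. With a replicate block, 6 rose and 12 fell in culture and 6 rose and 6 fell in marrow, and same-numbered libraries did not deviate together (correlations of -0.045 to 0.059). Shares over all genes are not given for the voom, z, replicate block and left-out-library fits. Counts from those fits therefore describe the members alone and cannot be set against all genes.

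Directions of called members were kept in these fits. Uncalled values near 0 changed sign. Without centring they were -0.24 for Zfp106, -0.22 for Zfp110, -0.15 for Zfp148, -0.16 for Zfp263, -0.0385 for Zfp346, -0.13 for Zfp622, -0.0261 for Zfp706 and -0.27 for Zfp777 in culture, -0.0377 for Zfp207 and -0.029 for Zfp622 in marrow, and -0.11 for the difference of Zfp703. After quantile normalization they were -0.0604 for Zfp106, -0.0651 for Zfp110 and 0.0665 for Zfp143 in culture, -0.0204 for Zfp207 and 0.0118 for Zfp809 in marrow, and -0.00205 for the difference of Zfp703. With voom weights Zfp809 was at 0.00229 in marrow. Leaving out 1 library gave, in culture, -0.00523 to 0.26 for Zfp110, -0.32 to 0.0392 for Zfp143 and -0.0916 to 0.28 for Zfp777. In marrow it gave -0.0144 to 0.15 for Zfp207, -0.58 to 0.36 for Zfp346, -0.45 to 0.0661 for Zfp384, -0.0324 to 0.27 for Zfp622, -0.37 to 0.33 for Zfp809, -0.32 to 0.26 for Zfp874a and -0.23 to 0.00201 for Zfp91. The cause of these shifts was not tested. Members had a median of 9 to 18 reads per library, which limits what could be detected in single genes.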
